A study of Mus musculus with 27 samples.

Results

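Gene expression was compared between sorted vascular smooth muscle (SM) cells and early hemogenic endothelial (HE1) cells while AP-1 was blocked. The members of the comparison are all the DOX arrays of these populations, namely 2 arrays of SM-dox and 2 of HE1-dox out of 27 arrays in the series, and all 24296 genes or transcripts that could be tested on them were considered. Every cell came from a mouse embryonic stem cell (ESC) line that carries a Flag-tagged dominant-negative FOS (dnFOS) cassette, which doxycycline (DOX) switches on. The line was made by picking clones after selection, and the number of clones behind the arrays is not given in the sources used here. Cells were differentiated for 3.75 days as embryoid bodies, FLK1+ cells were purified, and these were kept in blast culture with 1 µg/ml DOX for 2 days before sorting. HE1 cells are KIT+TIE2+CD41-, and the surface phenotype used for SM cells is not given in the sources used here. The same populations from cultures without DOX, 3 SM and 2 HE1 arrays, carry the same cassette in the off state and served as the comparison with AP-1 intact. Cells without the cassette but with DOX were not analysed here. Nothing says that replicates came from separate differentiations, so p-values measure only a spread between arrays. That spread was estimated for each gene within the 13 groups of all 27 arrays, not from the SM-dox and HE1-dox arrays alone. The number of arrays limits the precision.

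AP-1 is a family of dimers of FOS, JUN and ATF proteins that bind DNA in response to extracellular signals. The dnFOS peptide binds JUN proteins and covers their DNA-binding domain, which keeps dimers that contain JUN from DNA. The study measured the loss of JUN binding in complete blast cultures, not in the sorted populations. Vascular smooth muscle and hemogenic endothelium arise from the same mesodermal precursor, the hemangioblast. Smooth muscle is known for its contractile proteins and matrix. Hemogenic endothelium is known for its endothelial junctions and surface receptors, and it later gives rise to blood cells.

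Signals were given as log2 of the processed spot intensity relative to the 75th percentile of the same array, so that a gene's level can be compared between arrays but not with that of another gene. The 75th percentile was 604 and 333 intensity units on the SM-dox arrays and 138 and 335 on the HE1-dox arrays. The probes well above background made up 56.2% to 66.9% of all on these 4 arrays. In untreated cells the 75th percentile was 342, 434 and 199 for SM replicates 1 to 3 and 125 and 128 for HE1. The share of probes well above background was 89.6% on untreated SM replicate 2, 59.4% and 55.8% on the other SM arrays, and 53.6% and 70.3% for HE1. The arrays of replicate 2 of both populations were on the same slide, whereas the other SM-dox array and the other HE1-dox array were on different slides with other scan days. Across genes, the SM-dox and HE1-dox arrays that shared a slide correlated with r = 0.975, more closely than the replicates of SM-dox (r = 0.919) or of HE1-dox (r = 0.926). Genes are not independent replicates, and these values are descriptions.

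The labelled populations were checked against their markers, and 1 library stood apart. The smooth muscle markers Acta2, Tagln, Cnn1, Myh11 and Myl9 had higher group means in SM-dox than in HE1-dox, but none passed the test, and Acta2 was also bright in HE1-dox, at 7.91 and 8.04 against 8.94 and 9.64 in SM-dox. Desmin (Des) did not follow the label, with -2.22 and -4.47 in SM-dox and -2.43 and -3.80 in HE1-dox. The endothelial junction cadherin Cdh5 was at -1.38 and 4.74 in SM-dox and at 5.21 and 6.69 in HE1-dox. Hence SM-dox replicate 2 carried much more of this transcript than SM-dox replicate 1. The same held for the 26 endothelial surface and junction genes as a list, whose median level was -1.31 in SM-dox replicate 1 and 3.39 in SM-dox replicate 2, against 4.49 and 4.88 in HE1-dox. Their summed level (log2 of the summed signals) was 6.19 and 9.95 in SM-dox and 10.04 and 11.06 in HE1-dox. Every gene of the list was well above background on both HE1-dox arrays and on at least 1 SM-dox array. Untreated SM replicate 2, on the same slide, showed the same pattern with a median level of 2.38 against -0.96 and -0.84 in the other SM arrays. The part of this array, and of its slide, in the results below was not tested beyond the values given without it and within the slide. In bulk RNA, fewer cells of a type and less RNA per cell cannot be told apart. Because of these levels, differences are given below for all arrays and, where they depend on it, for the replicate 1 and replicate 2 arrays apart.

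**Figure D1:**
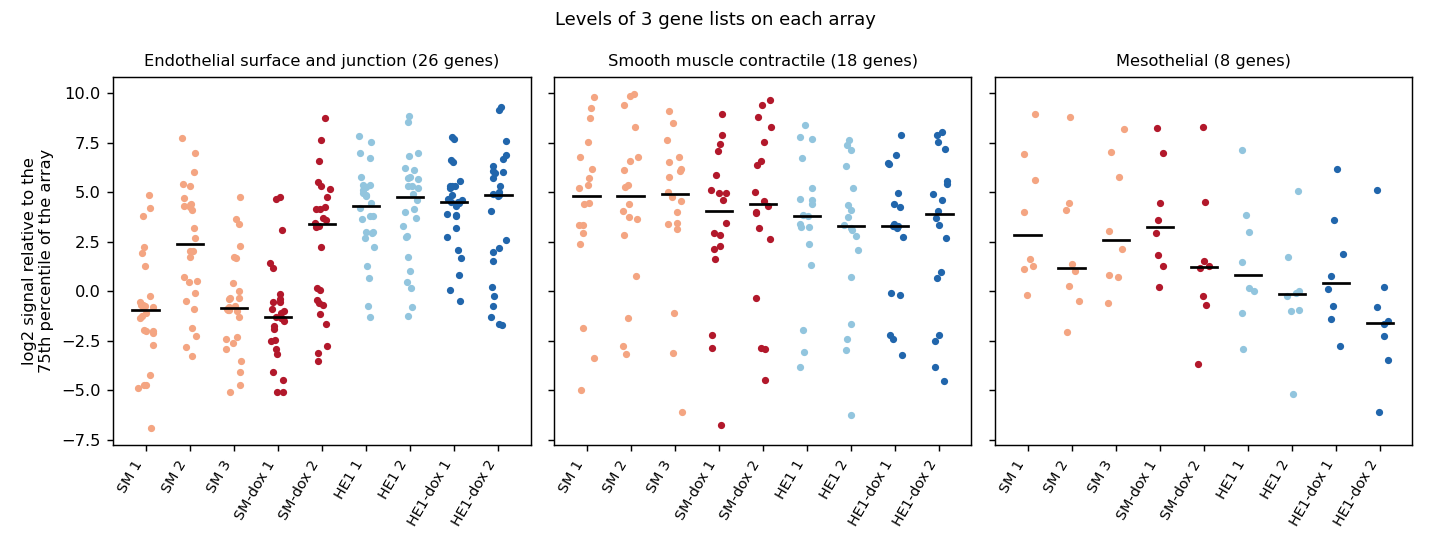
Each point is 1 gene and each black line the median of the list, on the log2 scale relative to the 75th percentile of the array, for the 3 SM, 2 SM-dox, 2 HE1 and 2 HE1-dox arrays. The endothelial median of SM-dox replicate 2 (3.39) lies near those of HE1-dox (4.49 and 4.88), whereas that of SM-dox replicate 1 is -1.31.

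With AP-1 blocked, SM and HE1 cells differed in named genes. Among the genes called, Cldn5, Vwf, Eng, Notch4 and Mfng were lower in SM-dox, and Cxadr, Lsr, Nodal and Eomes were higher. At an adjusted p under 0.05 (limma, Benjamini-Hochberg) and at least a 2-fold difference, 41 genes or transcripts were called higher in SM-dox (0.169% of those tested) and 42 were called lower (0.173%), 83 in all (0.342%). Of these, 33 of the higher and 37 of the lower ones have a gene symbol. Both SM-dox arrays lay on 1 side of both HE1-dox arrays for all 83. Such separation was seen upwards in 10.8% and downwards in 13.8% of all genes tested, so that on its own it sets little apart with 2 arrays a group. The sizes of the called log2 differences ran from 2.08 to 5.82, against a median standard error (SE) of 0.669 over all genes tested. Of those called higher, 12 were well above background on no HE1-dox array, and 8 of those called lower on no SM-dox array. Their differences are no exact sizes, and these include the 5.82 of Grik3. On the slide that held replicate 2 of both populations, all 83 differed by at least 2-fold, but these arrays are among those that gave the calls, and their direction there follows from the separation. Without an adjustment, 859 genes were higher (3.54%) and 1032 lower (4.25%) at p under 0.05. The median over all genes tested was -0.01.

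The number of calls depended strongly on single arrays. Leaving out SM-dox replicate 2, the array with the high endothelial levels, gave 97 genes higher and 263 lower, of which 62 of the 83 were among the calls. By contrast, 1 and 0 genes were called without SM-dox replicate 1, 8 and 14 without HE1-dox replicate 1, and 4 and 11 without HE1-dox replicate 2. The single array then left in a group was taken to vary as the other groups do. Untreated arrays entered through the shared spread, and 54 and 101 genes were called without SM replicate 2, 14 and 12 without SM replicate 3, and 27 and 24 without either HE1 replicate. With slide as a fixed block the counts were 18 and 12, with 21 of the 83 among them. With slide as a random block they were 158 and 148, with all 83 among them. A fit to the SM-dox and HE1-dox arrays alone gave 6 and 10, with 6 of the 83 among them. Scaling each array to its median shifted the median of all genes to 0.32 and gave 24 genes higher and 15 lower, so that 61.5% of calls were higher instead of 49.4%. The normexp background correction shifted it to -0.15. The sign of the 83 is no measure of stability when an array is left out, since the separation of the 4 arrays fixes it.

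Of the endothelial junction and surface genes, 3 of 26 were called lower in SM-dox (0.173% of all genes). All 26 genes of the list had a negative difference, also under each alternative that tested them, except that 2 of the 26 were positive without SM-dox replicate 1. The median log2 difference was -3.78, beside -0.01 over all genes, and 23 of the 26 had both SM-dox arrays below both HE1-dox arrays (13.8% of all genes). The list holds Tek, which encodes TIE2 of the HE1 gate, so the sign of Tek is no finding. The 3 called were Cldn5, Vwf and Eng. Without SM-dox replicate 2 there were 17 called, 1 without HE1-dox replicate 2, and none without SM-dox replicate 1, HE1-dox replicate 1 or SM replicate 3, with slide as a fixed block or without a filter on dim probes. The median was -5.61 between the replicate 1 arrays and -1.55 on the shared slide.

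Claudin 5 (Cldn5), the claudin of endothelial tight junctions, measured -4.06 and -1.67 in SM-dox and 3.18 and 1.54 in HE1-dox. Its groups did not overlap, and it was the named gene with the most negative difference, log2 -5.22 (SE 1.04, limma adjusted p = 0.0405). Von Willebrand factor (Vwf), the adhesive glycoprotein that endothelial cells store, measured -3.14 and -0.44 in SM-dox against 2.07 and 2.21 in HE1-dox. That is a log2 difference of -3.93 (SE 0.815, limma adjusted p = 0.0449), with the higher SM-dox value again on replicate 2. Endoglin (Eng), a co-receptor for TGF-beta family ligands, fell by 3.59 (SE 0.687, limma adjusted p = 0.038), from 3.91 and 1.98 in HE1-dox to -1.34 and 0.05 in SM-dox. Other genes of the list had differences of similar size that did not pass. The VEGF receptor genes Flt4 (-3.05) and Flt1 (-2.33), the junction gene Esam (-4.09), Cdh5 (-4.26), the receptor Tie1 (-4.40), the guidance receptor Robo4 (-4.37) and the orphan receptor gene Gpr182 (-4.59) had limma adjusted p between 0.0741 and 0.551. Kdr, which encodes FLK1, the receptor used to purify the starting cells, showed -0.61 (SE 0.796), and its groups overlapped, while its other probe, above background on all 4 arrays, gave -1.97.

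The scavenger receptor Stab1, a gene of sinusoidal endothelium and macrophages, had values of -2.18 and 0.66 in SM-dox and 4.57 and 3.31 in HE1-dox, a difference of -4.71 (SE 0.983, limma adjusted p = 0.0473). Signalling genes were called beside it. Pde2a, a cyclic nucleotide phosphodiesterase, was at -0.66 and 2.88 against 6.07 and 5.99, a difference of -4.92 (SE 0.898, limma adjusted p = 0.029). Adora2a, which encodes an adenosine receptor, was at -4.68 and -0.99 against 1.60 and 2.69, a difference of -4.97 (SE 0.931, limma adjusted p = 0.0346). In each of these 3 genes the SM-dox groups lay wholly below HE1-dox, and SM-dox replicate 2 lay nearer to HE1-dox. Among the 42 genes called lower, 33 had a higher value in SM-dox replicate 2 than in replicate 1, compared with 17 of the 41 called higher. Their median difference was -4.11 between the replicate 1 arrays and -2.58 on the shared slide, compared with 3.38 and 2.90 for the genes called higher. Also called lower were Ldb2, which encodes a LIM domain binding protein (-3.77, SE 0.494, limma adjusted p = 0.00525), the retinoic acid hydroxylase gene Cyp26b1 (-3.37), the transglutaminase gene Tgm2 (-2.30), the adaptor gene Sh2d3c (-2.75) and Fxyd5 (-4.22).

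Within the Notch pathway the calls fell on the endothelial receptor and on a modifier. Notch4, the Notch receptor known from endothelium, measured -2.10 and 0.66 in SM-dox and 3.60 and 2.98 in HE1-dox. The groups were apart, with a difference of -4.01 (SE 0.72, limma adjusted p = 0.029). Mfng, a fringe glycosyltransferase that modifies Notch receptors, was at -2.14 and 0.40 against 3.54 and 3.37, which is -4.32 (SE 0.674, limma adjusted p = 0.0147), and its second probe gave -4.20. Of the 17 genes in the list of Notch pathway and arterial genes, which does not hold Mfng, 11 were negative, 8 were separated downwards (13.8% of all genes) and only Notch4 was called (0.173%). The connexin genes Gja5 (-4.18) and Gja4 (-4.04) had limma adjusted p of 0.0873 and 0.202, and a second probe of Gja5, above background on 1 array of each population, gave -0.96. The list median was -1.21, and it was -0.45 without SM-dox replicate 1 and -0.73 with slide as a fixed block. No member of the list was called with that block, without a filter on dim probes or in a fit to the SM-dox and HE1-dox arrays alone. None of the 16 endothelial transcription factor genes was called, although all 16 had a negative difference. Their median was -2.10 in all, -3.46 between the replicate 1 arrays and -0.71 on the shared slide, and 7 of them were positive without SM-dox replicate 1. Sox18 (-4.56) and Erg (-3.63), regulators of endothelial identity, had limma adjusted p of 0.28 and 0.247.

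Genes of the blood lineage went both ways, with single genes called lower in SM-dox and most erythroid genes, described further on, above 0. Kit, the receptor for stem cell factor, defines the HE1 gate, so its difference is no finding. It measured -1.38 and 0.86 in SM-dox and 3.24 and 3.91 in HE1-dox. The other gate gene, Tek, which encodes TIE2, differed by -1.88 (SE 1.22) and did not pass. Itga2b, which encodes CD41 and should be absent from the HE1 surface, was at 1.94 and -0.82 in HE1-dox and -1.32 and -3.26 in SM-dox. Csf2rb, the shared beta chain of the receptors for IL3, IL5 and GM-CSF, was at -3.01 and -2.13 in SM-dox and 0.37 and 0.21 in HE1-dox, a difference of -2.86 (SE 0.568, limma adjusted p = 0.0405). Its close relative Csf2rb2 was called as well (-2.72, SE 0.551, limma adjusted p = 0.0428). Further probes of these paralogs gave -0.53 and -0.09, and signal can be shared between them, so both values are uncertain. Lilrb4a, an inhibitory receptor of myeloid cells, was not well above background in SM-dox, at -6.70 and -6.29, and measured -3.09 and -1.92 in HE1-dox. It was at least 6.14-fold higher in HE1-dox (limma adjusted p = 0.00931). F13a1, the A subunit of coagulation factor XIII and a megakaryocyte and macrophage gene, was likewise not well above background in SM-dox and was at least 6.07-fold higher in HE1-dox (limma adjusted p = 0.00525). Ptgs1, which encodes the cyclooxygenase COX1, was called lower too (-2.90, SE 0.488, limma adjusted p = 0.023). In the lists, 1 of 12 myeloid genes (Csf2rb) and 1 of 10 megakaryocyte genes (Vwf) were called, both lower (0.173% of all genes). None of 19 hematopoietic transcription factor genes was called. Neither list kept a lower call with a replicate block or with slide as a fixed block, where 1 megakaryocyte gene was called higher. Vwf is also in the endothelial surface list, and Tal1, Lmo2, Fli1 and Erg are also endothelial factors, so these lists are not separate evidence. Itga2b, whose protein the HE1 gate excludes, is in the megakaryocyte list. The medians were -1.14 for the myeloid, -1.86 for the megakaryocyte and -1.17 for the hematopoietic factor genes. A gene above background in HE1-dox alone tends to be negative for that reason. Over members above background in both populations the medians were -0.62, -1.69 and -1.17 in the same order. The median of the hematopoietic factors was -1.29 between the replicate 1 arrays and -0.27 on the shared slide, and -0.077 without SM-dox replicate 1 and -0.002 without HE1-dox replicate 2. The myeloid median was -2.00 between the replicate 1 arrays and -0.71 on the shared slide. The megakaryocyte median was -0.74 without SM-dox replicate 1, with 5 of 12 genes positive. Among these factors 5 were positive, the highest being Gata1 at 1.89. The blood regulator Runx1 overlapped fully, at -0.25 and 1.76 in SM-dox and -0.34 and 1.70 in HE1-dox. Gfi1b (-0.70) and the leukocyte marker gene Ptprc (-1.31) did not pass. Second probes of Lilrb4a (-1.33) and F13a1 (-1.003) were above background in neither population, so each call rests on 1 probe.

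A pair of subunits of glutamate receptors stood on opposite sides. Gria2, an AMPA receptor subunit, was not well above background in SM-dox and was at least 4.73-fold higher in HE1-dox (limma adjusted p = 0.0493), and its second probe (-1.66) was above background in neither population. Grik3, a kainate receptor subunit, was not well above background in HE1-dox, at -5.49 and -6.97, and measured -0.22 and -0.60 in SM-dox. It was at least 17.2-fold higher in SM-dox (limma adjusted p = 0.00525). A second probe of Grik3 was also above background in neither and gave -0.61, so both calls rest on 1 probe each.

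**Figure D2:**
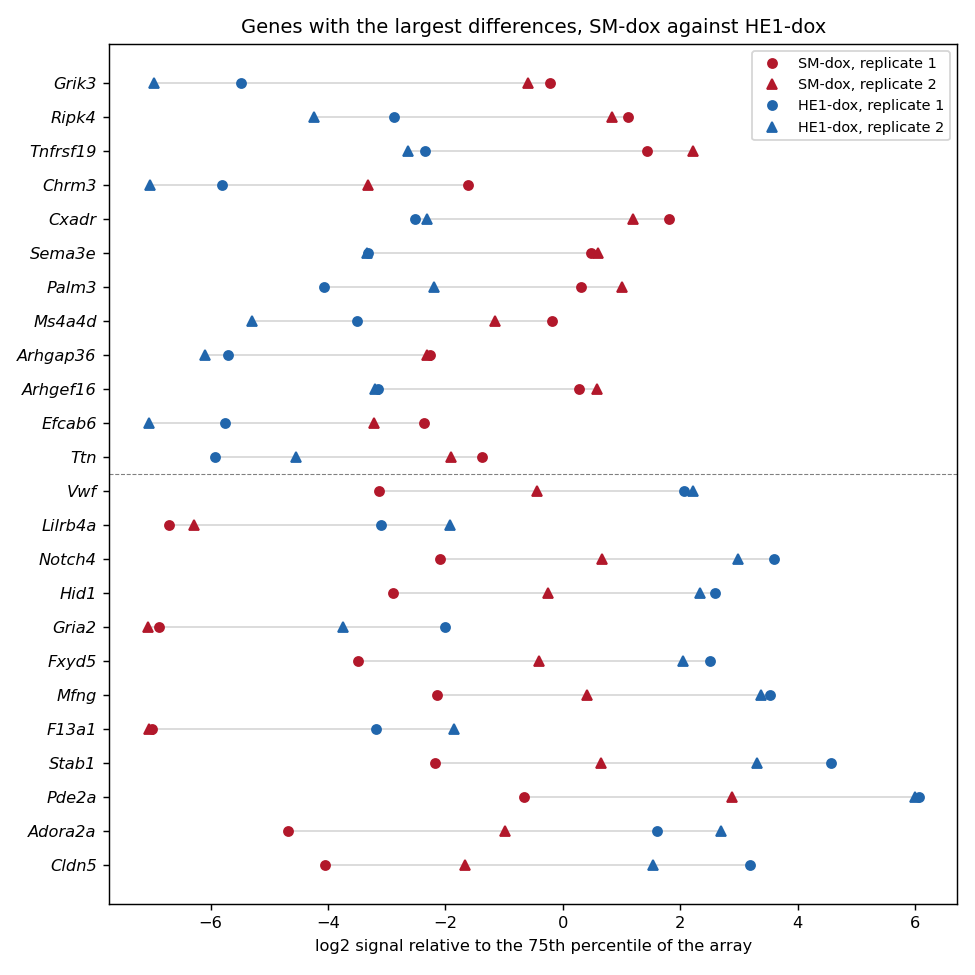
Signal of the 12 called genes with a symbol and the most positive difference (above the dashed line) and the 12 with the most negative, on the log2 scale relative to the 75th percentile of the array, with 1 symbol per array (red, SM-dox; blue, HE1-dox; circle, replicate 1; triangle, replicate 2). Only genes whose populations do not overlap were eligible, so the lack of overlap in every row follows from the choice. In Cldn5 the SM-dox values of -4.06 and -1.67 lie below 1.54 and 3.18.

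Several genes higher in SM-dox are known from epithelial cells, and a list of 20 epithelial genes was drawn up after these values were seen. It therefore carries no test. Of 16 members tested, 5 were called higher (0.169% of all genes) and none lower, 14 were positive, 11 were separated upwards (10.8% of all genes), and the median was 2.64. It was 1.44 without SM-dox replicate 1 and without HE1-dox replicate 2, and no member was called without either of these, without HE1-dox replicate 1 or without a filter on dim probes. With slide as a fixed block 1 member was called, as in a fit to the SM-dox and HE1-dox arrays alone. Median scaling gave 2 and slide as a random block 6. Cxadr, an adhesion protein of epithelial tight junctions, measured 1.80 and 1.20 in SM-dox and -2.51 and -2.32 in HE1-dox, a difference of 3.92 (SE 0.705, limma adjusted p = 0.029). A second probe of Cxadr, above background on both SM-dox arrays and 1 HE1-dox array, gave 1.13. On the first probe the replicates of each population differed by less than 1 log2 unit. Ripk4, a kinase of keratinocyte differentiation, was at 1.11 and 0.83 against -2.88 and -4.25 (4.54, SE 0.906, limma adjusted p = 0.0409). Lsr, a receptor of tricellular junctions, was at 4.78 and 4.88 against 2.04 and 2.29 (2.66, SE 0.525, limma adjusted p = 0.0405). Myo5b, a motor of apical membrane traffic, was at 0.05 and 0.26 against -2.92 and -3.43 (3.33, SE 0.592, limma adjusted p = 0.0277). E-cadherin (Cdh1) had values of 2.00 and -1.15 in SM-dox and -1.95 and -4.48 in HE1-dox and was not called (limma adjusted p = 0.282). For keratin 8 (Krt8) the replicates were further apart than the populations, at 6.98 and -0.24 in SM-dox and 3.58 and -3.44 in HE1-dox.

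Mesothelial genes were all positive. All 8 of those tested had a higher group mean in SM-dox, with a median of 2.83 (2.77 between the replicate 1 arrays and 3.19 on the shared slide). None was called, and 4 were separated upwards (10.8% of all genes). The median was 1.69 without SM-dox replicate 1 and 1.56 without HE1-dox replicate 2, with 7 of 8 positive in each. Its level also differed between replicates, at 3.26 and 1.22 in SM-dox and 0.44 and -1.59 in HE1-dox. Pdpn, podoplanin, was at 3.60 and 4.49 in SM-dox and 0.78 and 0.22 in HE1-dox (3.54, SE 0.961, limma adjusted p = 0.136; 2.47 on a second probe). Wt1, a transcription factor of the mesothelium, was at 1.30 and 1.55 against -1.42 and -1.66 (2.96, SE 0.718, limma adjusted p = 0.085). Krt8, Krt18 and Krt19 are in this list and in the epithelial one, so the lists are not separate evidence.

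Genes of the Nodal pathway and of the primitive streak were also drawn together after their values were seen. Of 13 tested, 2 were called higher (0.169% of all genes), 12 were positive and 11 were separated upwards (10.8%), with a median of 1.42. A gene above background in SM-dox alone tends to be positive for that reason. Of the 8 members above background in both populations 7 were positive, with a median of 1.22. The median was 0.70 with the normexp correction, and no member was called when any 1 of the 4 arrays was left out, without a filter on dim probes or in a fit to the groups compared. Nodal, the TGF-beta family ligand that patterns the early embryo, measured 1.94 and 2.84 in SM-dox and -0.84 and -0.02 in HE1-dox (2.81, SE 0.559, limma adjusted p = 0.0405). Eomes, a T-box factor of the primitive streak, was at 0.86 and 1.91 against -2.41 and -1.66 (3.42, SE 0.592, limma adjusted p = 0.023). Its second probe gave 3.93 but was above background in SM-dox alone, so this is no exact size. Fgf5, a growth factor of the epiblast, differed by 5.13 but did not pass (SE 1.13, limma adjusted p = 0.0552). Wnt3 (3.98) did not pass either (limma adjusted p = 0.0972). The pluripotency factors Pou5f1 and Nanog did not move together, with 1.29 (SE 0.964) and -1.96 (SE 0.877), and neither was called.

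Genes that the study names as FOS:JUN targets or as bound by AP-1 made a list of 20. The study chose that list partly on these arrays, so it is not independent evidence. Of its members 1 was called higher (0.169% of all genes), 17 of the 20 had a positive difference (12011 of all 24296), 9 were separated upwards (10.8%), and the median was 1.03. Cdkn2b, an inhibitor of the cell cycle from this list, was at -0.52 and -0.17 against -4.60 and -2.74 (3.33, SE 1.19, limma adjusted p = 0.343), and a second probe gave 2.02. Signalling genes were called higher one by one. Ptgs2, which encodes the inducible cyclooxygenase COX2, was at 0.48 and -0.22 against -2.57 and -2.52 (2.68, SE 0.541, limma adjusted p = 0.0428). Thus the genes of both cyclooxygenases were called, in opposite directions. Sema3e, a secreted semaphorin that acts on endothelial plexin D1, was at 0.49 and 0.60 against -3.32 and -3.34 (3.87, SE 0.767, limma adjusted p = 0.0405). Chrm3, a muscarinic acetylcholine receptor, was not well above background in HE1-dox and was at least 4.16-fold higher in SM-dox (limma adjusted p = 0.0405). Tnfrsf19, a receptor of the TNF family, gave 4.32 (SE 0.781, limma adjusted p = 0.029), but a second probe that was above background on all 4 arrays gave 0.34. Scube2, a secreted protein of the Hedgehog pathway, gave 2.51 and its second probe -0.01.

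Contractile genes were not called in either direction. Of 18 tested, 14 were positive (12011 of all 24296) and 5 were separated upwards (10.8% of all genes). The median was 0.88 (0.62 between the replicate 1 arrays, 1.29 on the shared slide and 0.45 without HE1-dox replicate 1). Calponin 1 (Cnn1), a regulator of actomyosin, was at 2.15 and 4.30 in SM-dox and -0.19 and 0.69 in HE1-dox (2.98, SE 1.18, limma adjusted p = 0.451). Tagln, which encodes SM22-alpha, was at 7.87 and 9.41 against 6.48 and 7.17 (1.82, SE 0.925, limma adjusted p = 0.71). Tropomyosin 1 (Tpm1) showed 2.48 (SE 0.636, limma adjusted p = 0.108), and its populations were apart, while 4 other probes gave 0.22 to 2.38. Myosin light chain kinase (Mylk) went the other way with -2.50 (SE 1.14), where SM-dox replicate 1 was at -6.75 and below background. Titin (Ttn), the giant protein of the striated sarcomere, was the muscle gene that was called (3.59, SE 0.734, limma adjusted p = 0.0439), yet its other probes gave 1.45, 0.25 and 0.26 and were above background on at most 1 SM-dox array. Cardiac alpha-actin (Actc1) was at 4.19 and 5.46 against 1.53 and 1.93 (SE of the difference 1.23, limma adjusted p = 0.457). Myocardin (Myocd), the coactivator of SRF in smooth muscle, narrowly missed the threshold, with -0.99 and -0.55 against -3.36 and -4.37 (3.09, SE 0.665, limma adjusted p = 0.0518). Just inside the threshold lay Gria2 at 0.0493, and just outside lay Efemp1, which encodes the matrix protein fibulin 3, at 4.07 and 0.0502.

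Among 14 mesenchymal and mural surface genes, 13 were positive and none was called (median 1.05), with Cdh11, a mesenchymal cadherin, at 3.73 (limma adjusted p = 0.101; 1.15 on a second probe) and the PDGF receptor gene Pdgfra at 2.18 (limma adjusted p = 0.144). Of 13 collagen genes, none was called and 8 were positive (median 0.94, 0.499 without HE1-dox replicate 2, and -0.14 with 6 positive without SM-dox replicate 1), with Col8a1 at 3.99 (limma adjusted p = 0.0775). Of 30 other matrix genes, 22 were positive and 1 was called higher (0.169% of all genes). No such gene was called with normexp, quantile normalization, median scaling or a replicate block, and 1 was with the authors' values or slide as a fixed block. For 15 TEAD target genes the median was 0.84 (0.30 without HE1-dox replicate 1 and 1.48 without HE1-dox replicate 2), with 13 positive, none called, and F3, which encodes tissue factor, at 3.66 (limma adjusted p = 0.166). Erythroid genes had a positive median of 1.56 over 12 genes, none of them called, which was 3.30 between the replicate 1 arrays and 0.34 on the shared slide, and 0.73 without SM-dox replicate 1 and 0.93 without HE1-dox replicate 1. Their summed level was 8.22 and 7.03 in SM-dox and 6.06 and 6.71 in HE1-dox, and the embryonic alpha-globin gene Hba-x alone ran from 4.68 to 0.47 between the SM-dox replicates. The part of red cells in the SM gate was not tested. Of 10 AP-1 family genes none was called, and they went both ways, from Batf3 at -1.74 to Fos at 1.495 (limma adjusted p = 0.312 and 0.755). Their transcripts do not report AP-1 activity, since dnFOS acts on the proteins.

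**Figure D3:**
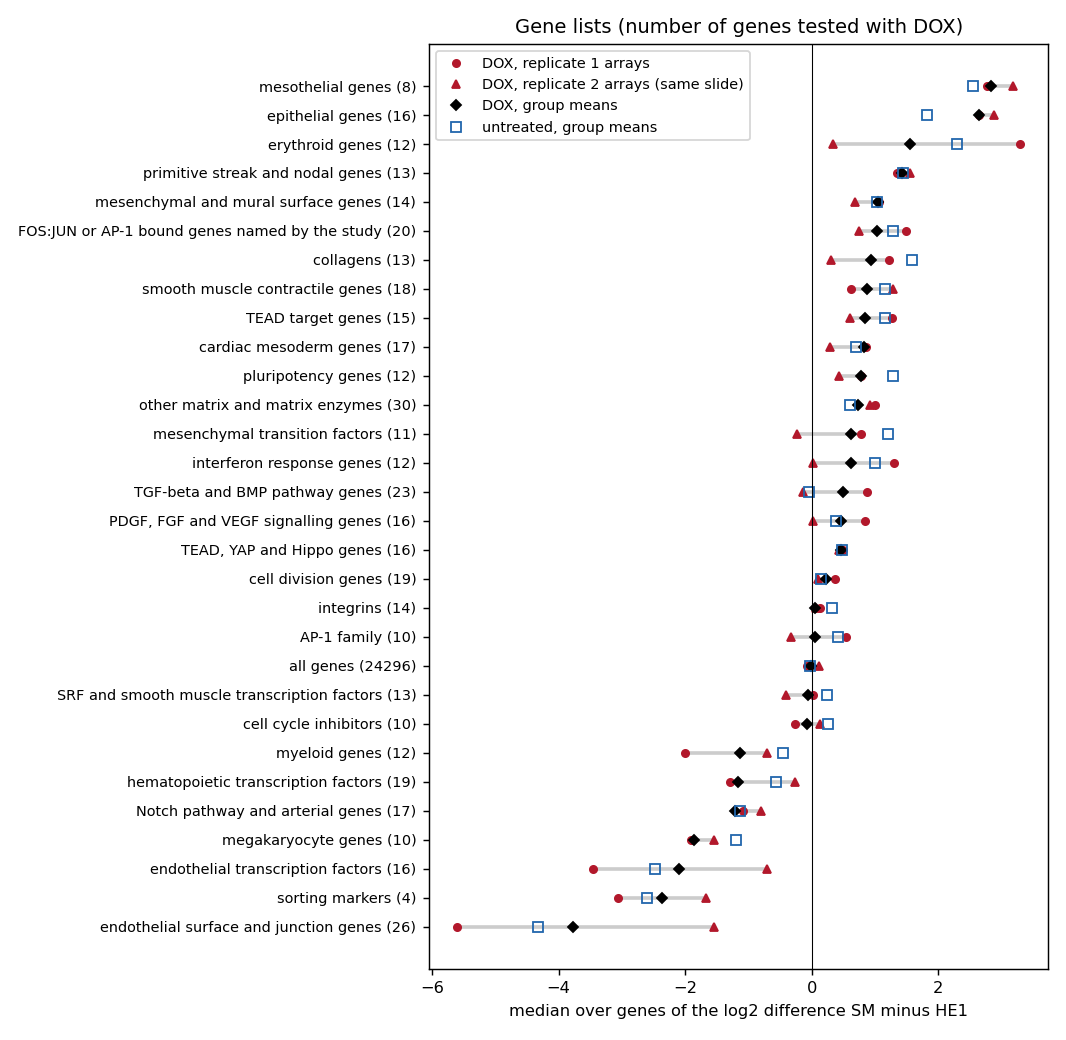
Median log2 difference SM minus HE1 over the genes of each list, with DOX (black diamonds, group means; red circles and triangles, the replicate 1 and replicate 2 arrays apart) and without DOX (blue squares); the number of genes tested with DOX is in brackets. The endothelial surface list reaches from -5.61 to -1.55 between replicates, and the mesothelial list from 2.77 to 3.19.

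Hprt, the locus that holds the dnFOS cassette, served as a check that DOX had acted. Its signal was 3.84 and 5.17 in SM-dox and 3.04 and 4.55 in HE1-dox, compared with 0.84 to 1.11 in untreated SM and 0.52 and 0.62 in untreated HE1. Each DOX array was thus above each untreated array, and the difference between SM-dox and HE1-dox was 0.71 (SE 0.55, limma adjusted p = 0.898).

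The same contrast in untreated cells gave the lineage differences with AP-1 intact. The contrasts share no arrays, but they share slides, and replicate 2 of all 4 groups is on 1 slide. In untreated cells 153 genes were called higher in SM (0.654% of 23404 tested) and 97 lower (0.414%), 250 in all (1.07%). These counts also depended on single arrays, and no gene was called without SM replicate 3, 1 without SM replicate 1 or HE1 replicate 2, 133 without HE1 replicate 1 and 723 without SM replicate 2. Of these, 247 were tested with DOX, and all 247 had the same sign there, compared with 80.4% of the 22533 genes tested in both. With the normexp correction 235 of the 247 had the same sign, beside 86.9% of all genes, and with slide as a fixed block 246 did. With DOX, 238 of the 247 were at least 2-fold different in the same direction, 240 were separated in that direction, 223 had an unadjusted p under 0.05, and 50 were called. The 50 genes called in both contrasts, 23 higher and 27 lower, are 20.0% of the untreated calls and 60.2% of the DOX calls. The overlap was 0 without SM-dox replicate 1, without SM replicate 3 and in a fit to the groups compared, 196 without SM-dox replicate 2, 213 with the authors' values and 229 with slide as a random block. Because the untreated calls were chosen for their size without DOX, a smaller size with DOX would follow from that choice alone. Their median size was 2.94 untreated and 2.52 with DOX, and 179 of the 247 were smaller with DOX. For the 151 that were higher in SM the medians were 2.70 and 2.26, and for the 96 that were lower they were -3.34 and -3.29. In the reverse reading, 73 of the 83 DOX calls were tested untreated, all 73 had the same sign, 71 were at least 2-fold different, and their median size was 3.32 with DOX and 2.66 untreated.

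Cldn5 differed by -5.22 with DOX and -5.09 without, Eng by -3.59 and -4.01, and Vwf by -3.93 and -4.59. Cxadr differed by 3.92 and 3.41. These genes and Notch4 were called in both. Tgfb2, a TGF-beta ligand, was called in untreated cells (2.66) and not with DOX (1.00, limma adjusted p = 0.821; 1.83 with DOX on a second probe), as was Pdgfc, a PDGF ligand (2.79 and 1.85). Hand1, a mesodermal transcription factor, had 3.48 and 1.65, and Gata1, the erythroid regulator, 3.77 and 1.89. In each of these the test of the difference between the contrasts did not pass, as described next.

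**Figure D4:**
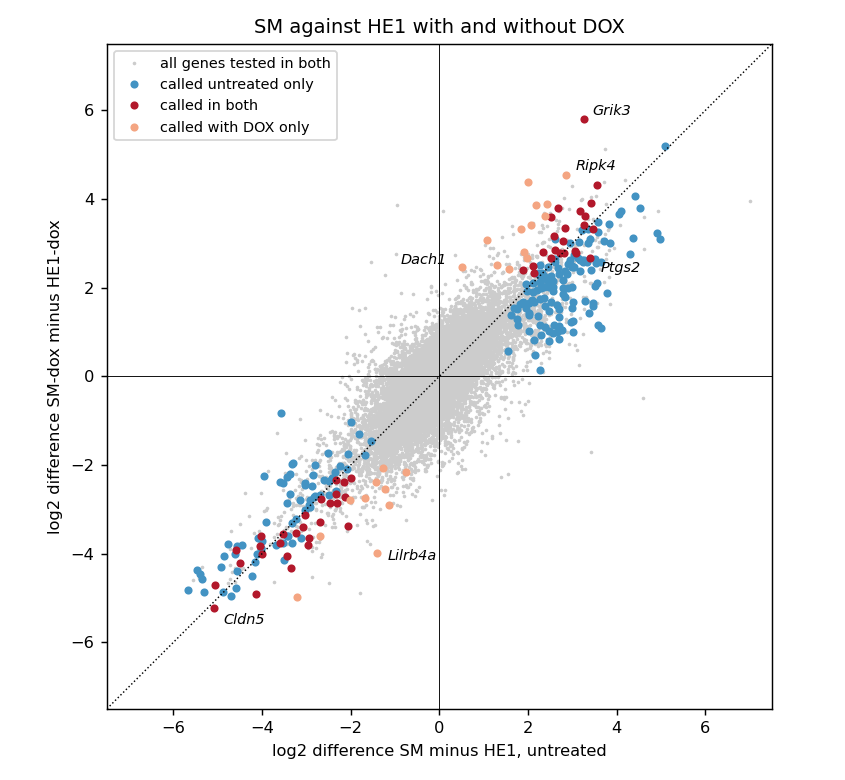
Log2 difference SM minus HE1 without DOX (horizontal) and with DOX (vertical) for the 22533 genes tested in both, with equal values on the dotted line. The 197 genes called untreated only (blue), the 50 called in both (red) and the 23 called with DOX only (orange) all lie in the quadrants of equal sign.

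No difference between the contrasts passed the test. Of 25167 genes tested for it, limma called 0 at an adjusted p under 0.05 and 2-fold, the lowest adjusted p was 0.583, and 128 had an unadjusted p under 0.05 (0.509%). The median SE of this difference was 0.921, against 0.669 for the DOX contrast. The processing alternatives that left out no array gave 0 as well. Leaving out SM-dox replicate 2 called 1 transcript (Gm10790, limma adjusted p = 0.0496) and leaving out SM-dox replicate 1 another (Olfr716, limma adjusted p = 0.025), each chosen after its value was seen. Of the 83 genes called with DOX, 15 had an unadjusted p under 0.05 for the difference.

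The genes with the lowest p in each direction are given as descriptions. F13a1 had the lowest (limma adjusted p = 0.583), with -7.01 and -7.05 in SM-dox and -3.19 and -1.85 in HE1-dox, whereas untreated SM arrays lay between -4.76 and -4.10 and untreated HE1 arrays at -3.78 and -5.20. Of the untreated arrays only 1, of SM, had F13a1 well above background, so the untreated values have no order. Myo1f, an unconventional myosin of blood cells, was at -5.65 and -4.14 in SM-dox against -3.24 and -1.85 in HE1-dox, and between -3.08 and -2.52 in untreated SM against -3.86 and -3.75 in untreated HE1. It was well above background on 1 array each of SM-dox and HE1-dox and on no HE1 array, and its DOX contrast was not tested. Rtn4rl1, a receptor related to the Nogo receptor, measured above background on all these arrays, differed by -0.87 with DOX and 1.88 without, and neither passed. In all, 31 genes were separated in both contrasts in opposite directions, and 2488 in the same direction. Myom2, a protein of the sarcomeric M-band, differed by -1.71 with DOX. It was not well above background in untreated HE1 and was at least 6.94-fold higher in untreated SM (limma adjusted p = 0.0808). In the positive direction, Efcab6 was well above background in SM-dox and in none of the other 3 groups (at least 3.30-fold over HE1-dox, limma adjusted p = 0.0409). Dach1, a transcription factor of the dachshund family, was at -0.15 and 0.26 in SM-dox and -2.44 and -2.37 in HE1-dox, against -0.91 to -1.83 in SM and -1.67 and -2.11 in HE1. It was called with DOX (2.46, SE 0.501, limma adjusted p = 0.0428), while the untreated difference was 0.52. Lilrb4a differed by -1.41 in untreated cells (limma adjusted p = 0.293), beside its bound of at least 6.14-fold with DOX.

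The promoters of called genes were searched for short motifs, since AP-1 and TEAD motifs are the subject of the study. A promoter is 250 bases before to 50 bases after a RefSeq start (build GRCm38.p6), and 25 of the 33 genes higher and 27 of the 37 lower in SM-dox had at least 1. The letters TGANTCA (AP-1), on either strand, were in 2 of 28 promoters of genes higher in SM-dox (7.14%) and 1 of 38 of genes lower (2.63%), against 5.38% of the 14654 promoters of all genes tested. GGAATG (TEAD) was in 7 (25.0%) and 4 (10.5%), against 12.8%. The letters of GATA factors, GATAAG, were in 1 (3.57%) and 5 (13.2%), against 5.73%. TGTGGT (RUNX) was in 4 (14.3%) and 5 (13.2%), against 12.9%, CCGGAAG (ETS) in 2 (7.14%) and 2 (5.26%), against 15.1%, and the CArG box of SRF in none, against 1.43%. These motifs do not contain each other. Promoters of 1 gene can overlap, and no test was made of these shares. A match says only that the letters are there, and no match says nothing about distal sites.

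The 3 called genes whose promoter holds the AP-1 letters were Notch4, lower in SM-dox, and Lsr and Gbp2b, higher in SM-dox. They are shown because these differences were present while AP-1 was blocked. Capitals mark TGANTCA and, in Notch4 and Lsr, GGAATG or its reverse complement. The Notch4 window is chr17:34564045-34564344 on the plus strand, with the AP-1 letters starting 4 bases before and the TEAD letters 227 bases before the start. The Lsr window is chr7:30973420-30973719 on the minus strand, with the AP-1 letters starting 65 bases before and the TEAD letters 38 bases after the start. The Gbp2b window is chr3:142594597-142594896 on the plus strand, with the AP-1 letters starting 9 bases after the start. All are written 5′ to 3′ on the strand of the gene.
Notch4: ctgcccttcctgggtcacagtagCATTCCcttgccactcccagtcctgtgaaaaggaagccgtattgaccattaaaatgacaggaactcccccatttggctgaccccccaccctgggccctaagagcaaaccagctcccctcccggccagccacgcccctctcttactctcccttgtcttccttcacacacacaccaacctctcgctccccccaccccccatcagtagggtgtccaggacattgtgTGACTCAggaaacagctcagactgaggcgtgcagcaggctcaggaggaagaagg
Lsr: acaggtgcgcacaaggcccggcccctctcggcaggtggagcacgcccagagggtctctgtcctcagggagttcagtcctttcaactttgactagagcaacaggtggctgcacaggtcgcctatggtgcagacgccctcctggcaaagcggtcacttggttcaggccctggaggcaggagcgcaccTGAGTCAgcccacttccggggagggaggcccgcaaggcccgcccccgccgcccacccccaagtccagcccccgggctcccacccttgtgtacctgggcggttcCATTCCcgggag
Gbp2b: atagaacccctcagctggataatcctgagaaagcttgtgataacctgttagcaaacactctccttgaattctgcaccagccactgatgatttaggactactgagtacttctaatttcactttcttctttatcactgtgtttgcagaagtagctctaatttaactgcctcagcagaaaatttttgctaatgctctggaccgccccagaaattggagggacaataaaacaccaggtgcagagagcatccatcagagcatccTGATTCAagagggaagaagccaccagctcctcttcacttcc

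Gbp2b, an interferon-induced GTPase with close relatives in the genome, measured 0.00 and -0.97 in SM-dox and -3.60 and -2.95 in HE1-dox (2.79, SE 0.535, limma adjusted p = 0.038), and its second probe gave 3.61. Its untreated difference was 3.08. Of the 3 genes, Notch4 and Gbp2b were called in both contrasts, and Lsr, with 2.66 under DOX, reached 1.98 in untreated cells (limma adjusted p = 0.052).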

How the data were processed

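Expression was read on 27 Agilent mouse arrays with 1 dye each. The deposited scanner output gives a processed intensity per spot, from which Feature Extraction had already removed background and spatial trend (version 10.7.3.1 per the file headers, 10.7.1.1 in the submitters' processing notes), and log2 values that the authors had scaled to the 75th percentile, used here as an alternative. Of 55681 probes, 26582 were named through their accession and RefSeq symbols, and the brightest probe stood for each of 37208 genes or transcripts. Log2 intensity minus the array's 75th percentile was fitted with limma 3.58.1 (R 4.3.3), 1 mean per group over all 27 arrays (14 residual degrees of freedom), tested on simulated data first. A gene was tested where each array of 1 or both groups showed it well above background. Where a group was nowhere above background, the bound takes the lowest well-measured signal of each array. The members and lists were chosen with earlier results of these data known.

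Named genes were the 12 called and separated genes with a symbol and the largest difference in each direction, up to 4 called and 2 other genes with the largest difference in each list, all markers, the 6 genes of lowest p in each direction for the difference, and Hprt. Other named genes were picked after their values were seen. Saturated spots numbered 0, and no arrays were identical. Alternatives were the background correction, scaling, filter, probe summary, authors' values, replicate and slide blocks, variance model, and leaving out each array. Lists without a call were SRF and smooth muscle factors, mesenchymal transition factors, integrins, TEAD, YAP and Hippo, TGF-beta and BMP, PDGF, FGF and VEGF signalling, cardiac, cell division, cell cycle inhibitor, pluripotency and interferon genes, with medians between -0.08 and 0.83. Some of these medians changed sign with 1 array left out. Without SM-dox replicate 1 the interferon median was -0.62. Without HE1-dox replicate 1 the TGF-beta and BMP median was -0.22, that of PDGF, FGF and VEGF signalling -0.39 and that of cell division -0.33. The median of the 4 sorting markers, Kit included, was -2.37. Sequencing data were not analysed here. Some called genes are counted but not reported here by name.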

Additional observations from a re-analysis of the deposited data

How the results depend on the processing

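The number of DOX calls moved widely, and the cause was not tested. Where an array was left out, the sign of the calls was fixed by the separation of the 4 arrays. The counts of genes higher and lower in SM-dox, called untreated and called in both were 41, 42, 250 and 50. They became 24, 15, 109 and 19 with median scaling, 117, 160, 669 and 213 with the authors' values, 2, 5, 61 and 3 without a filter, 19, 22, 127 and 23 with detection in both groups, 18, 12, 485 and 21 with slide as a fixed block, 158, 148, 1022 and 229 with slide as a random block, and 6, 10, 0 and 0 in a fit to the groups compared alone. Quantile normalization gave 78 lower, 495 untreated and 98 in both, and normexp gave 161 untreated. With 1 array left out, the ranges were 1 to 97 higher, 0 to 263 lower, 0 to 723 untreated and 0 to 196 in both, and the count for the difference between the contrasts was 0 to 1.

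The replicate numbers are shared by the groups but rest on 2 pairs, whose deviations correlated with 0.551 with DOX and 0.322 untreated, so they were not taken as pairing. A replicate block gave 37 higher and 30 lower, 58 of the 83 among them, 21 untreated, 10 in both and 0 for the difference.

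Sign changes occurred in uncalled genes. With SM-dox replicate 1 left out, Krt8 (-0.31), Thy1 (-0.32) and Pou5f1 (-0.54) became negative and Kdr (0.45) and Nkx2-5 (0.69) positive. Without SM-dox replicate 2, Des became 0.89 and Runx1 -0.93. Without HE1-dox replicate 1, Cdk1 (-0.15), Pcna (-0.22), Runx1 (-0.95) and Hprt (-0.044) became negative and Des 0.45. Without HE1-dox replicate 2, Krt8 was -0.21, Gfi1b 0.71 and Nkx2-5 0.03. On the shared slide alone, Kdr was 0.32 and Thy1 -0.31. Normexp gave Myh11 -0.069 and Pdzd7 -0.23, the mean of all probes Myh6 -0.14, median scaling Des 0.094 and the authors' values Des 0.12. Over all arrays left out in turn, the ranges were -0.31 to 6.91 for Krt8, -0.15 to 3.77 for Cdk1, -0.22 to 2.06 for Pcna, -0.044 to 1.47 for Hprt, -1.36 to 0.89 for Des, -1.67 to 0.45 for Kdr, -0.95 to 1.09 for Runx1, -2.11 to 0.71 for Gfi1b, -2.69 to 0.69 for Nkx2-5, -0.32 to 1.095 for Thy1 and -0.54 to 3.12 for Pou5f1. With 2 arrays a group and a median SE of 0.669, the smallest called size was 2.08.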
